A study of Mus musculus with 8 samples.

Results

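The spindle assembly checkpoint was described here through 10 genes, Mad1l1, Mad2l1, Mad2l1bp, Trip13, Bub1, Bub1b, Bub3, Ttk, Zwint and Zw10, of the 24860 genes listed in every library. They were taken by name, as the checkpoint's conserved sensors and effectors, its kinetochore adaptors and the pair that switches it off. All 10 were found through their Ensembl identifiers. RNA came from MII oocytes, mature mouse eggs that wait at the second meiotic metaphase for fertilization. All donors were C57BL/6 females, 6 weeks old and labelled postnatal day 42. One group of 4 libraries was wild type (WT), and the other 4 were labelled Esrp1-KO, deficient in the RNA-binding splicing regulator ESRP1. The construction of the Esrp1 allele is not given in the sources used here. A tube of 15 oocytes was lysed for each library, and Smart-seq2 made full-length cDNA from polyadenylated RNA without keeping strand. The submitters call the libraries of a group biological replicates but do not say that a tube stands for 1 animal, and p-values cover only the variation among tubes. Values are FPKM, fragments scaled to gene length and sequencing depth, as mean ± SD with n = 4 per group.

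The checkpoint holds a cell in metaphase until every kinetochore is attached to the spindle. At an unattached kinetochore the kinase TTK (MPS1) starts the signal, BUB1 and BUB3 dock there, and MAD1 converts MAD2 from an open to a closed form. Closed MAD2, BUBR1 (the product of Bub1b) and BUB3 then bind CDC20 and keep the anaphase-promoting complex from degrading securin and cyclin B. The checkpoint is silenced when p31comet (the product of Mad2l1bp) grips closed MAD2 and the ATPase TRIP13 unfolds it. In mouse oocytes the same proteins time the first meiotic division and guard against segregation errors, while the arrest of the mature egg at metaphase II rests on cytostatic factor.

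The read totals implied by the FPKM were 25018182 to 28932109 in WT and 24910433 to 32337966 in Esrp1-KO. Esrp1 itself (ENSMUSG00000040728, chromosome 4, 11331933 to 11386783) was at 17.5 ± 1.42 FPKM in WT and 3.30 ± 0.68 in Esrp1-KO, without overlap. All 10 oocyte markers examined were above 1 FPKM, and their sum was 8159 to 9335 FPKM in WT and 9706 to 12051 in Esrp1-KO. The single markers did not move as one. Zp1, Zp2 and Zp3 were higher in Esrp1-KO without overlap. Mos was lower without overlap, at 162 to 242 FPKM in WT and 90.1 to 128 in Esrp1-KO, and the groups of the other markers overlapped. Of 13 listed cumulus and granulosa markers, Cyp19a1 and Kitl exceeded a mean of 1 FPKM. The sum over these 13 was 9.05 to 12.2 FPKM in WT and 3.92 to 5.49 in Esrp1-KO. Cyp19a1 (5.46 to 7.07 in WT, 1.35 to 2.31 in Esrp1-KO) and Kitl (2.61 to 3.93 and 1.65 to 2.09) were its largest parts. Hsd3b1 was also lower without overlap, while Ptgs2 was higher without overlap (0.0233 to 0.175 in WT, 0.198 to 0.510 in Esrp1-KO). Fshr, Fst, Ptx3, Tnfaip6 and Cyp11a1 were at 0 in every WT library. Over 8 blood and immune markers the sum was 0.426 to 1.63 FPKM in WT and 0.714 to 9.19 in Esrp1-KO, the top value being replicate 3, with Lyz2 at 5.44 and Cd68 at 3.50 FPKM. Over 5 proliferation markers it was 71.6 to 83.7 FPKM in WT and 68.7 to 91.4 in Esrp1-KO. The oocyte and cumulus sums did not overlap between the groups, and their part in the results below was not tested.

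The transcript of p31comet, Mad2l1bp, was far lower in Esrp1-KO eggs, and that of its partner ATPase, Trip13, did not pass the test. Bub1b and Ttk were also lower, by smaller amounts, and Bub3 was higher. Levels were tested with limma on log2(FPKM + 1) over the 8021 genes averaging 1 FPKM or more, and called at an adjusted p below 0.05. All 10 genes passed that filter. Of them, 1 rose, 3 fell and 6 did not pass, and with TMM scaling 2 rose and 2 fell, Zw10 joining the higher ones and Ttk dropping out. The background was high: 36.9% of all genes tested were called, 13.9% higher and 23.1% lower. A count of 4 in 10 is near that background and is not a result about the checkpoint as a group. The median difference was 0.06 on the log2 scale over the 10 genes and -0.06 over all genes tested. Among all calls 62.5% were lower, and with TMM scaling, which moved the median of all genes from -0.06 to 0.03, 51.9% were lower. Because FPKM is relative to the library total and priming used poly(A) tails, fewer transcripts per egg, fewer eggs with the transcript and shorter tails cannot be told apart.

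**Figure D1:**
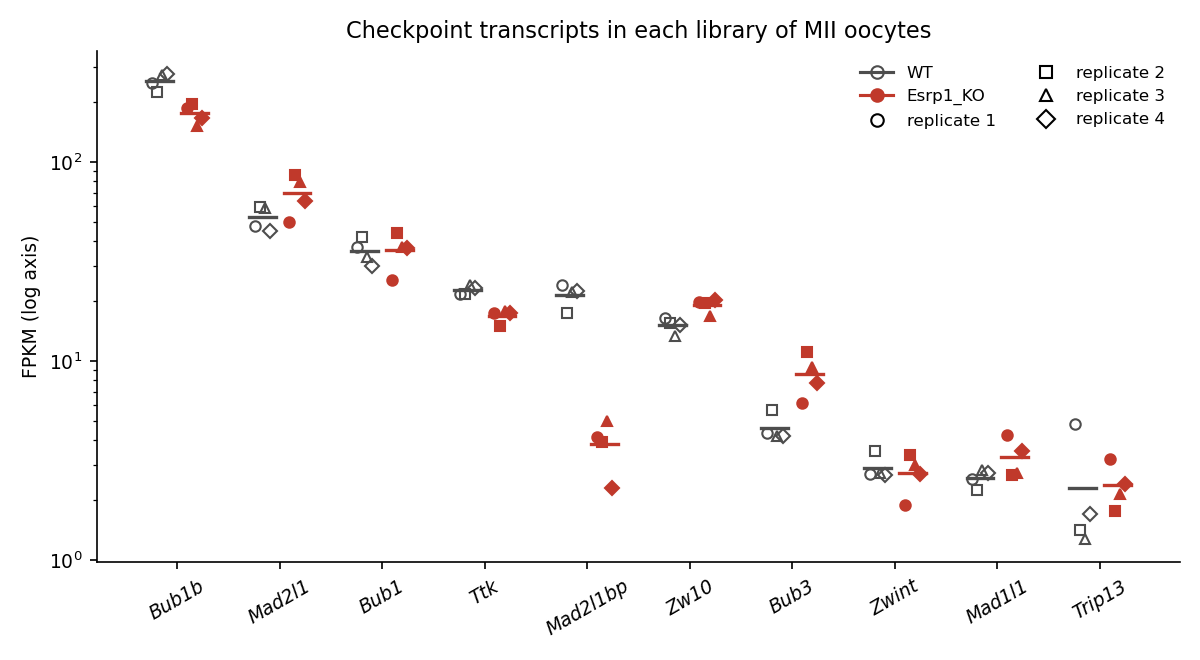
FPKM (log axis) of the 10 checkpoint transcripts in each of the 8 libraries, with WT as open grey symbols, Esrp1-KO as filled red symbols, a shape per replicate number and a line at each group mean. Mad2l1bp, Bub1b and Ttk lie lower in all 4 Esrp1-KO libraries than in any WT library, and Bub3 and Zw10 lie higher in all 4.

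Mad2l1bp (ENSMUSG00000034509, chromosome 17, 46147387 to 46153553, minus strand, GRCm38) encodes p31comet, the adaptor that presents closed MAD2 to TRIP13. Its level was 24.1, 17.3, 22.3 and 22.4 FPKM in WT replicates 1 to 4, and 4.14, 3.92, 4.98 and 2.31 FPKM in Esrp1-KO replicates 1 to 4. Every Esrp1-KO library was far below every WT library. The mean fell from 21.5 ± 2.93 to 3.84 ± 1.11 FPKM, to 17.8% of WT. The log2 difference was -2.24 ± 0.19 (SE; 95% interval -2.67 to -1.82; limma adjusted p = 3.53e-05). Of the 8021 genes tested, 30 fell further on this scale. The values rested on 550 to 821 reads per WT library and 83 to 181 per Esrp1-KO library. Over the 19 alternative settings the call held each time, with differences of -2.55 to -1.93. Among tested genes, Mad2l1bp went from the 78.4th percentile of level in WT to the 40.3rd in Esrp1-KO. Its exons overlap no other annotated gene, and neither neighbour on the chromosome, Rsph9 or Gtpbp2, reached a mean of 1 FPKM in a group.

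Trip13 (chromosome 13, 73911347 to 73937784, minus strand) encodes the AAA+ ATPase that remodels closed MAD2 and other HORMA-domain proteins. Its level was 4.80, 1.42, 1.28 and 1.70 FPKM in WT and 3.22, 1.76, 2.16 and 2.42 FPKM in Esrp1-KO. WT replicate 1 was higher than all other libraries, and the remaining WT libraries were below every Esrp1-KO library. The log2 difference was 0.14 ± 0.28 (SE; 95% interval -0.50 to 0.77; limma adjusted p = 0.743). Without WT replicate 1 it was 0.45, with a limma adjusted p of 0.0784. Trip13 was counted in 123 to 440 reads per library.

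The balance between the silencing adaptor and its partners was examined as the difference of log2(FPKM + 1) within each library, for 6 pairs of genes, each by an exact two-sided permutation test over the 70 arrangements of 4 against 4, adjusted over the 6. The smallest p this design allows is 0.0286. Where a gene's groups already lay apart, as for Mad2l1bp, Bub1b and Bub3, this p largely restates that call and is no separate support. The value for Mad2l1bp relative to Trip13 was 2.88 ± 0.54 (SD, n = 4) in WT and 0.50 ± 0.46 in Esrp1-KO, a difference of -2.38 (exact permutation p = 0.0286, adjusted 0.0429). In FPKM, Mad2l1bp exceeded Trip13 by 5.02 to 17.4 times in the WT libraries and was at 0.954 to 2.30 times Trip13 in the Esrp1-KO libraries. Relative to Mad2l1, Mad2l1bp moved from -1.25 ± 0.37 to -3.87 ± 0.45 (SD, n = 4), a difference of -2.62 (exact permutation p = 0.0286, adjusted 0.0429). No WT library overlapped an Esrp1-KO library in either quantity.

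**Figure D2:**
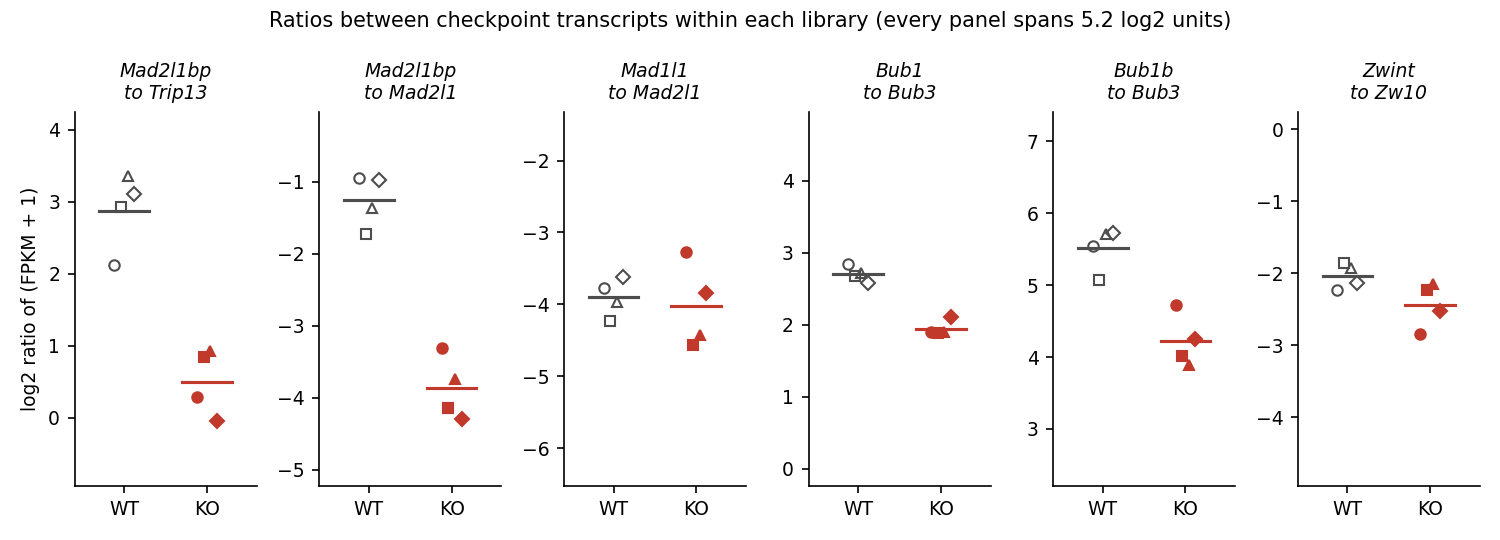
Difference of log2(FPKM + 1) between 2 checkpoint transcripts within each library, for 6 pairs of genes, with WT as open and Esrp1-KO as filled symbols, shapes for replicate numbers and lines at group means, every panel spanning the same number of log2 units. Mad2l1bp relative to Trip13 and to Mad2l1, and Bub1 and Bub1b relative to Bub3, separate the groups. Mad1l1 relative to Mad2l1 and Zwint relative to Zw10 overlap.

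Mad2l1 and Mad1l1 encode the pair that generates closed MAD2 at the kinetochore. Mad2l1 (chromosome 6, 66535390 to 66547220) was at 47.6, 59.7, 58.9 and 44.8 FPKM in WT and 49.7, 86.1, 79.0 and 64.0 FPKM in Esrp1-KO. It was higher in Esrp1-KO in 4 of 4 same-numbered pairs, but Esrp1-KO replicate 1 lay within the WT range. The log2 difference was 0.38 ± 0.19 (SE; 95% interval -0.04 to 0.79; limma adjusted p = 0.140). It passed with the replicate number as a block (limma adjusted p = 0.0381) and without Esrp1-KO replicate 1 (0.53, adjusted p = 0.0286). Mad1l1 (chromosome 5, 140008689 to 140321552) was at 2.25 to 2.82 FPKM in WT and 2.68 to 4.24 FPKM in Esrp1-KO. Its log2 difference was 0.25 ± 0.15 (SE; 95% interval -0.08 to 0.57; limma adjusted p = 0.214). The 2 transcripts kept overlapping proportions, with Mad1l1 relative to Mad2l1 at -3.90 ± 0.26 in WT and -4.03 ± 0.59 in Esrp1-KO (SD, n = 4; exact permutation p = 0.714, adjusted 0.714).

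Bub1b (ENSMUSG00000040084, chromosome 2, 118598211 to 118641591) encodes BUBR1, the pseudokinase that blocks the anaphase-promoting complex directly. It was the most abundant of the 10 transcripts per length, at the 98.1st percentile of all tested genes in WT. Its level was 248, 223, 272 and 276 FPKM in WT and 187, 195, 152 and 166 FPKM in Esrp1-KO. All Esrp1-KO libraries were below all WT libraries. The mean fell from 255 ± 24.6 to 175 ± 19.4 FPKM, to 68.7% of WT, with a log2 difference of -0.54 ± 0.13 (SE; 95% interval -0.82 to -0.26; limma adjusted p = 0.00786). With replicates 2 and 3 alone the limma adjusted p was 0.115.

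Bub3 (ENSMUSG00000066979, chromosome 7, 131560222 to 131571895) encodes the WD40 adaptor that carries both BUB1 and BUBR1 to phosphorylated KNL1. Its level was 4.36, 5.66, 4.21 and 4.22 FPKM in WT and 6.13, 11.1, 9.29 and 7.76 FPKM in Esrp1-KO. The groups did not overlap, although the highest WT library and the lowest Esrp1-KO library were close. The mean rose from 4.61 ± 0.70 to 8.58 ± 2.14 FPKM, or 1.86-fold, with a log2 difference of 0.75 ± 0.18 (SE; 95% interval 0.36 to 1.15; limma adjusted p = 0.00827). With replicates 1 and 4 alone the limma adjusted p was 0.0617. Recovered reads were 805 to 992 per WT library and 1389 to 1945 per Esrp1-KO library.

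Bub1 (chromosome 2, 127801122 to 127831865), the kinase that docks BUBR1 and marks the inner centromere, had overlapping groups. Its level was 37.5, 41.8, 33.3 and 30.2 FPKM in WT and 25.5, 43.8, 37.4 and 36.9 FPKM in Esrp1-KO. The log2 difference was -0.01 ± 0.18 (SE; 95% interval -0.40 to 0.39; limma adjusted p = 0.979), and its sign turned with TMM scaling to 0.10. Relative to Bub3, both Bub1 and Bub1b were lower in Esrp1-KO. For Bub1, itself at -0.01, this only repeats the Bub3 rise of 0.75 on the log2 scale. Bub1 relative to Bub3 went from 2.71 ± 0.11 in WT to 1.95 ± 0.11 in Esrp1-KO (SD, n = 4), a difference of -0.76 (exact permutation p = 0.0286, adjusted 0.0429). Bub1b relative to Bub3 went from 5.51 ± 0.31 to 4.22 ± 0.37 (SD, n = 4), a difference of -1.29 (exact permutation p = 0.0286, adjusted 0.0429). In FPKM, Bub1b stood at 39.4 to 65.4 times Bub3 in the WT libraries and at 16.4 to 30.5 times in the Esrp1-KO libraries. These multiples rest on the length given to Bub3. With a pseudocount of 0.1 FPKM the differences for Bub1 and Bub1b relative to Bub3 were -0.87 and -1.40.

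Ttk (ENSMUSG00000038379, chromosome 9, 83834689 to 83872389) encodes MPS1, the kinase at the top of the pathway. Its level was 21.7, 21.6, 24.0 and 23.3 FPKM in WT and 17.5, 14.9999, 17.8 and 17.4 FPKM in Esrp1-KO. The groups did not overlap and both were tight. The mean fell from 22.7 ± 1.19 to 16.9 ± 1.29 FPKM, to 74.6% of WT, with a log2 difference of -0.40 ± 0.11 (SE; 95% interval -0.65 to -0.16; limma adjusted p = 0.0173). This call was lost with TMM scaling (-0.30, limma adjusted p = 0.0664) and with median-ratio scaling (-0.30, adjusted p = 0.0669). It was also lost without WT replicate 4 (-0.39, limma adjusted p = 0.0525). Limited to replicates 1 and 4, the limma adjusted p was 0.115, and limited to replicates 2 and 3 it was 0.128.

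Zw10 and Zwint belong to the outer kinetochore module that recruits MAD1 and dynein. Zw10 (chromosome 9, 49055613 to 49078775) was at 16.4, 15.6, 13.3 and 15.1 FPKM in WT and 19.7, 19.5, 16.8 and 20.2 FPKM in Esrp1-KO. Each Esrp1-KO library was above each WT library, but the log2 difference of 0.32 ± 0.12 (SE; 95% interval 0.05 to 0.58) missed the threshold (limma adjusted p = 0.0590). It passed with TMM scaling (0.42, limma adjusted p = 0.0163), quantile normalization (0.39, adjusted p = 0.0234) and the replicate block (adjusted p = 0.0428). Groups without overlap were thus found for 5 of the 10 genes, 2 higher and 3 lower, against 36.8% of all genes tested. Zwint (chromosome 10, 72654845 to 72674964), which links KNL1 to the ROD, ZW10 and ZWILCH complex, was at 2.67 to 3.55 FPKM in WT and 1.90 to 3.37 in Esrp1-KO. Its log2 difference was -0.08 ± 0.15 (SE; 95% interval -0.42 to 0.27; limma adjusted p = 0.732). Zwint relative to Zw10 was -2.04 ± 0.17 in WT and -2.44 ± 0.31 in Esrp1-KO (SD, n = 4; exact permutation p = 0.0857, adjusted 0.103). The other genes of the ROD, ZW10 and ZWILCH complex did not rise with Zw10. Zwilch was called lower, with means of 8.17 and 5.74 FPKM (-0.44, limma adjusted p = 0.0398), a call lost with TMM scaling. Kntc1, which encodes ROD, did not pass (-0.25, limma adjusted p = 0.180).

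**Figure D3:**
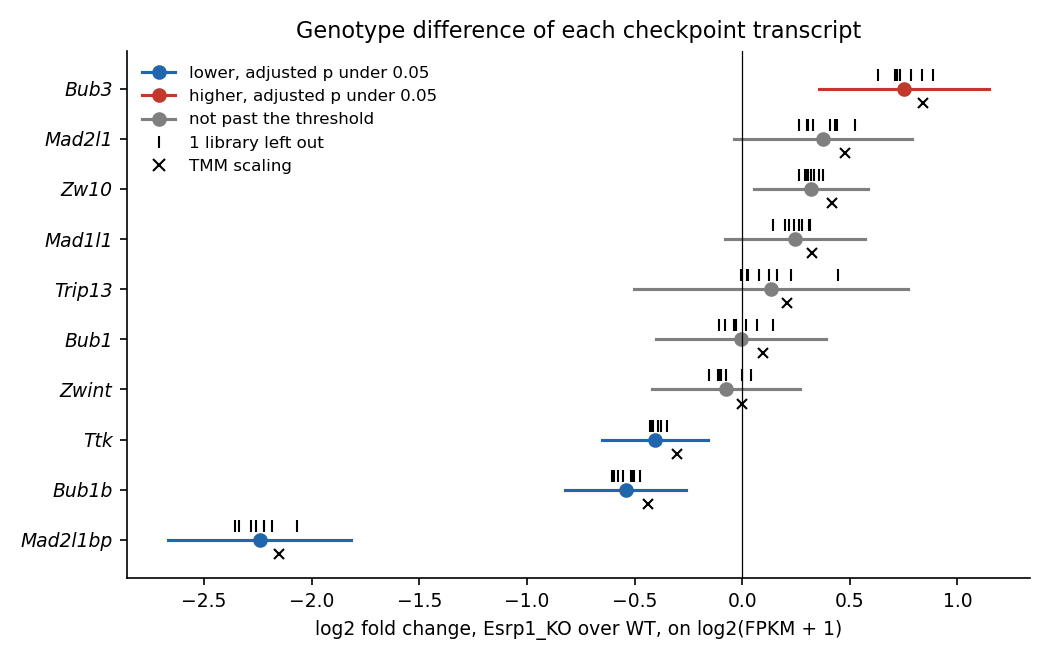
Log2 difference, Esrp1-KO minus WT, of the 10 checkpoint transcripts on the log2(FPKM + 1) scale, as points with 95% intervals from limma (blue lower, red higher, grey not past the threshold), ticks for the value with 1 library left out and crosses for TMM scaling. Mad2l1bp at -2.24 stands far below the other 9, which lie between -0.54 and 0.75.

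Ordered by FPKM, the WT eggs held Bub1b, Mad2l1, Bub1, Ttk, Mad2l1bp, Zw10, Bub3, Zwint, Mad1l1 and Trip13. Ranges of neighbours overlapped for Ttk with Mad2l1bp, for Zwint with Mad1l1 and for Mad1l1 with Trip13. In Esrp1-KO eggs the top 3 were again Bub1b, Mad2l1 and Bub1, followed by Zw10 and Ttk with overlapping ranges, then Bub3. Mad2l1bp came next, and its range overlapped that of Mad1l1, which in turn overlapped Zwint, and Zwint overlapped Trip13. The order depends on the length behind FPKM. The authors' values fit the union of all annotated exons, which is 7006 bases for Bub3, whereas its coding transcripts span 747 to 3414 bases. Scaled to those transcripts, Bub3 in WT would be at 9.46 to 43.3 FPKM in place of 4.61, and Mad2l1 at 58.5 to 256 in place of 52.7. Mad2l1bp has a single coding transcript of 1272 bases, so its level stays at 21.5 FPKM.

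Within a group, several of the transcripts shared their high and low libraries. Mad2l1, Bub1, Bub3 and Zwint were each lowest in Esrp1-KO replicate 1 and highest in Esrp1-KO replicate 2, and all 4 were also highest in WT replicate 2. Mad1l1 ran the other way, with 4.24 FPKM in Esrp1-KO replicate 1 as its highest value and 2.68 in Esrp1-KO replicate 2 as its lowest. Mad2l1bp did not follow these 4 and was lowest in Esrp1-KO replicate 4.

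**Figure D4:**
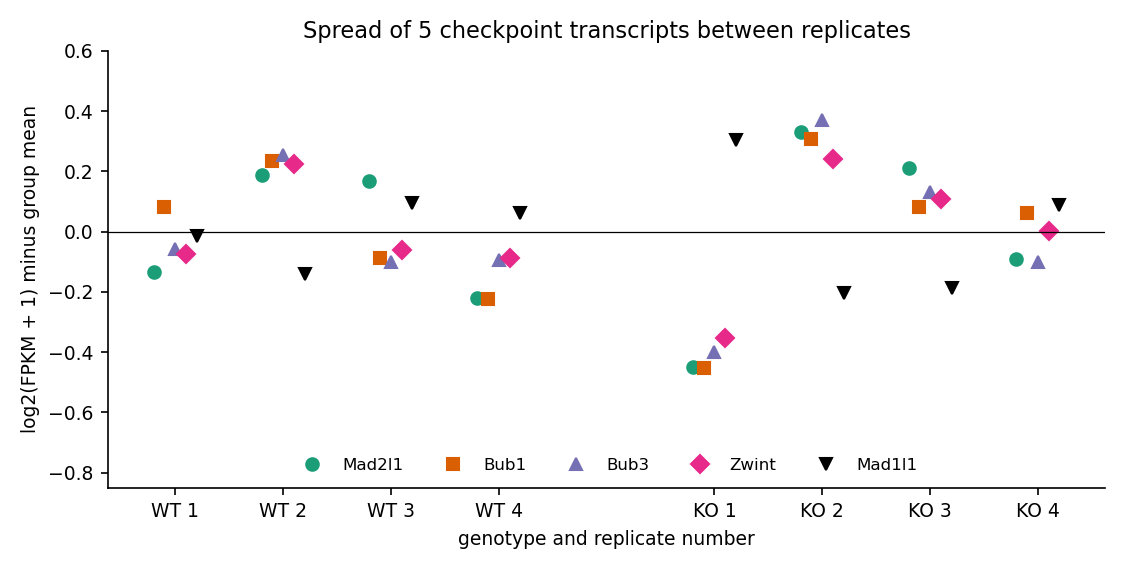
Deviation of log2(FPKM + 1) from the group mean for Mad2l1, Bub1, Bub3, Zwint and Mad1l1 in each of the 8 libraries. The first 4 lie lowest in Esrp1-KO replicate 1 (-0.45, -0.45, -0.40 and -0.35), where Mad1l1 is at 0.30.

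For the member with the largest difference, Mad2l1bp, the transcripts with the most similar pattern over the 8 libraries were ranked by Pearson's r of log2(FPKM + 1) among 6690 protein-coding genes. The closest were Stx7 (r = 0.994), Zfp992 (r = 0.989) and mt-Co1 (r = 0.988). Stx7, a syntaxin of late endosomes, was at 29.9 ± 2.53 FPKM in WT and 5.79 ± 1.10 in Esrp1-KO. Zfp992 was at 1.91 ± 0.38 FPKM in WT and 0.245 ± 0.09 in Esrp1-KO, and passed the filter of 1 FPKM only through WT. The mitochondrially encoded mt-Co1, a subunit of cytochrome c oxidase, was at 2788 ± 134 FPKM in WT and 734 ± 172 in Esrp1-KO. Each r is dominated by the gap between the 2 groups and is a description of these libraries.

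The sequence before the start site is shown for the 3 members that fell, since they share a direction. RefSeq on GRCm38.p6 gave an upstream window for all 10 genes, from 250 bases before the start up to it, with annotated exons removed. It was searched on both strands for CCAAT, the box bound by NF-Y, which reads ATTGG on the other strand. The letters TTTGAA were searched likewise, and so were the palindromic letters TTTAAA, both known as the core of the cell cycle homology region in promoters of late cell cycle genes. Capitals mark CCAAT or ATTGG.
Mad2l1bp, chr17:46153554-46153801, minus strand: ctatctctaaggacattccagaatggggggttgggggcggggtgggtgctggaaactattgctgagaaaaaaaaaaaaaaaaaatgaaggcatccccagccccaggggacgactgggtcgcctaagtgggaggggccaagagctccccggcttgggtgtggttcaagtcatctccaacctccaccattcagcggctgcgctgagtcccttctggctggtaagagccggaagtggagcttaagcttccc
Bub1b, chr2:118597961-118598210, plus strand: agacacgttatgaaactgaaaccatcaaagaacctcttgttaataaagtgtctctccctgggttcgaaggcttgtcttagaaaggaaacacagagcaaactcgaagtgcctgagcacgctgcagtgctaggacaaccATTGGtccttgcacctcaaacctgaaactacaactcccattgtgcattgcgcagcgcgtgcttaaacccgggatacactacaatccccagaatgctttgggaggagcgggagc
Ttk, chr9:83834439-83834688, plus strand: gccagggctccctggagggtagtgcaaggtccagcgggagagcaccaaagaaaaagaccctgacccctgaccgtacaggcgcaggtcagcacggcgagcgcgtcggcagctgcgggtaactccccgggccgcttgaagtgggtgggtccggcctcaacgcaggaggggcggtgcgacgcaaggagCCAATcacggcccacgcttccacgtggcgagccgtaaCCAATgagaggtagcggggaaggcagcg

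The Mad2l1bp window held none of these letters, that of Bub1b held CCAAT once and that of Ttk held it 2 times. In the whole 250-base windows, exons included, CCAAT was present for 5 of the 10 genes (Bub1, Bub1b, Bub3, Ttk and Zwint) and in 33.8% of 32851 mouse promoters. TTTGAA was present for 2 of the 10 and in 16.0% of promoters, and TTTAAA for 1 of the 10 and in 12.1%.

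The platform on which the checkpoint assembles was read from a list of 19 kinetochore recruitment genes, of which 18 were tested and 4 rose, 3 fell and 11 did not pass (median -0.05). That share is near the 36.9% called over all genes and is not a result about the list. Ndc80, the microtubule-binding subunit that also docks MPS1, rose 4.50-fold from 59.2 ± 2.38 to 266 ± 47.1 FPKM (log2 difference 2.14 ± 0.13 SE, limma adjusted p = 1.09e-05). Spc24, which anchors the NDC80 complex at the kinetochore, fell from 2.15 ± 0.38 to 0.899 ± 0.21 FPKM (-0.73 ± 0.14 SE, limma adjusted p = 0.00296). With an Esrp1-KO mean below the filter of 1 FPKM, Spc24 entered the test only through its WT libraries. Of the other NDC80 complex subunits, Spc25 rose from a mean of 11.1 to 23.7 FPKM (1.04, limma adjusted p = 0.0222). Nuf2 had means of 149 and 185 FPKM and did not pass (0.31, limma adjusted p = 0.0666). Aurkb, an error-correction kinase of the chromosomal passenger complex, rose from 7.63 ± 1.18 to 20.0 ± 3.37 FPKM (1.28 ± 0.16 SE, limma adjusted p = 0.000255). Aurkc and Incenp of the same list did not pass. Aurkc had means of 37.0 and 35.5 FPKM (-0.11, limma adjusted p = 0.775), and Incenp 20.0 and 21.6 FPKM (0.11, adjusted p = 0.679). Dsn1, a subunit of the MIS12 complex, fell from 249 ± 22.9 to 155 ± 15.4 FPKM (-0.69 ± 0.12 SE, limma adjusted p = 0.00202). Pmf1 of the same complex was called higher, with means of 3.11 and 4.73 FPKM (0.46, limma adjusted p = 0.0372). Mis12 did not pass (-0.17, limma adjusted p = 0.262). Ndc80 and Aurkb kept their calls in all 19 alternatives. Those of Dsn1 (limma adjusted p = 0.0521) and Spc24 (0.109) were lost with replicates 2 and 3 alone. With no filter, and without WT replicate 1, 3 or 4, only 2 higher calls were left, those of Ndc80 and Aurkb. The calls for Spc25 and Pmf1 were thus lost in each of these settings. The number of calls in this list ranged over the alternatives from 2 to 5 higher and 1 to 4 lower.

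The checkpoint's target, the anaphase-promoting complex with its activators and substrates, gave 4 higher, 3 lower and 12 not past the threshold among 19 tested of 21 (median -0.01). This share too is near the 36.9% called over all genes. Ccnb1, the cyclin B whose destruction ends metaphase, fell from 828 ± 46.2 to 408 ± 67.5 FPKM (-1.03 ± 0.14 SE, limma adjusted p = 0.000384). Ube2d1, a ubiquitin-conjugating enzyme, fell from 2.71 ± 0.35 to 0.782 ± 0.18 FPKM (-1.06 ± 0.13 SE, limma adjusted p = 0.000288). Its Esrp1-KO mean was below the filter of 1 FPKM, so Ube2d1 was tested only because of its WT libraries. Anapc10, a core subunit, fell from 32.9 ± 2.66 to 19.3 ± 5.40 FPKM (-0.78 ± 0.20 SE, limma adjusted p = 0.0120). Fzr1, the activator that replaces CDC20 late in mitosis, rose from 1.45 ± 0.29 to 4.06 ± 1.80 FPKM (0.98 ± 0.24 SE, limma adjusted p = 0.00919). Also called higher were Ube2s (1.03, limma adjusted p = 0.0351), Anapc4 (0.45, adjusted p = 0.0278) and Anapc5 (0.58, adjusted p = 0.0468). With no filter, and without WT replicate 1 or 2, only 1 higher call was left in this list, that of Fzr1. The calls for Ube2s, Anapc4 and Anapc5 were thus lost in each of these settings. The calls for Anapc10 (limma adjusted p = 0.101) and Fzr1 (0.161) were lost with replicates 2 and 3 alone. Cdc20, which the checkpoint complex binds, had means of 104 and 83.5 FPKM and did not pass (limma adjusted p = 0.143). Pttg1, which encodes securin, had means of 1070 and 1660 FPKM and did not pass either (0.58, limma adjusted p = 0.0637). Over the alternatives this list held 1 to 6 higher and 2 to 4 lower calls.

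A list of 28 other genes of checkpoint silencing held mainly phosphatase, dynein and chaperonin subunits. Of them 19 were tested, and 3 rose, 1 fell and 15 did not pass (median 0.08), against 36.9% called over all genes. The 19 differed by -0.45 to 0.71 on the log2 scale. Ppp1ca, a catalytic subunit of the phosphatase that removes MPS1 phosphorylation from KNL1, rose from 23.2 ± 5.06 to 36.2 ± 5.43 FPKM (0.63 ± 0.17 SE, limma adjusted p = 0.0171). Ppp2r5e, a B56 subunit of phosphatase PP2A, rose from 2.26 ± 0.16 to 3.73 ± 1.06 FPKM (0.51 ± 0.16 SE, limma adjusted p = 0.0295). The Ppp1ca call was lost with replicates 1 and 4 alone (limma adjusted p = 0.206). That of Ppp2r5e was lost in 6 of 18 alternatives, among them leaving out WT replicate 1 (limma adjusted p = 0.0686), 3 (0.0525) or 4 (0.0734). The call for Ppp2ca, the PP2A catalytic subunit (0.71, limma adjusted p = 0.0470), was lost in 10 of the 19 alternatives, and its groups overlapped. The call for Nde1, a dynein cofactor (-0.45, limma adjusted p = 0.0399), was lost in 13. Of 4 tested genes sharing the HORMA fold of MAD2, Atg101 (0.72, limma adjusted p = 0.0262) and Hormad1 (0.56, adjusted p = 0.0378) rose and none fell. Both had overlapping groups, in a fit that called 13.9% of all genes higher. The Atg101 call was lost in 6 of 18 alternatives and that of Hormad1 in 7 of 19, for both when WT replicate 3 or 4 or Esrp1-KO replicate 2 or 3 was left out (limma adjusted p between 0.0530 and 0.105). Over the alternatives the silencing list held 1 to 5 higher (5 with the replicate block) and 0 to 1 lower calls, and the HORMA list 0 to 2 higher and none lower.

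**Figure D5:**
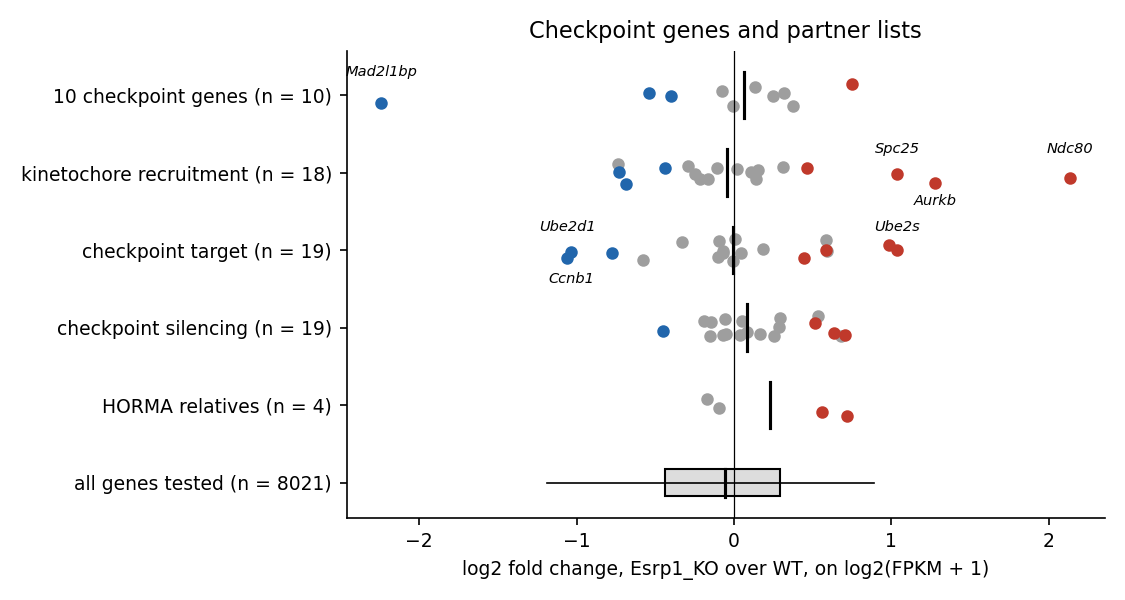
Log2 difference, Esrp1-KO minus WT, of each tested gene in the checkpoint list and the 4 partner lists, 1 point per gene (blue lower, red higher, grey not past the threshold), with black lines at medians and, for all genes tested, a box from the 25th to the 75th percentile and whiskers to the 5th and 95th. Medians of the lists lie between -0.05 and 0.23, with Mad2l1bp (-2.24) and Ndc80 (2.14) as the lowest and highest values.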

How the data were processed

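Per the file headers, the authors deposited 1 FPKM value per Ensembl gene and library. The submitters' processing notes name GRCm38 as genome build. Aligner, counter and annotation release: not given in the sources used here. Symbols came from GENCODE M21 (24812 of 24860 genes). For about 90% of values, FPKM multiplied by the M21 exon length fell on whole reads within 0.02 of a read, giving reads for 24351 genes. An FPKM of 1 over 1 kb stood for 24.9 to 32.3 reads. Reads include PCR copies.

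The 8021 genes averaging 1 FPKM or more were tested on log2(FPKM + 1), which understates changes of low genes, with limma 3.58.1 in R 4.3.3 (genotype as the only term, intensity trend, two-sided, Benjamini-Hochberg over all genes tested, threshold 0.05). The steps were tested on simulated data. Alternatives were another pseudocount, other filters, 3 scalings, no trend, a replicate block, voom on recovered reads, pairs of replicate numbers and each library left out. Same-numbered libraries deviated together (correlation of deviations from the group mean 0.262, 0.317, 0.226 and 0.261 for numbers 1 to 4), so the numbers, taken from the labels, were treated as pairs in the blocked alternative. Some unlike numbers correlated as highly, WT replicate 4 with Esrp1-KO replicate 1 at 0.402 and WT replicate 3 with Esrp1-KO replicate 2 at 0.252.

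The 10 genes and the partner and marker lists were chosen with earlier results of these data known. Named are Esrp1, the 10 genes, of each partner list the genes past the threshold up to the 4 with the smallest p, and the 3 genes most alike Mad2l1bp. Cdc20, Pttg1, Ube2s, Anapc4, Anapc5, Spc25, Nuf2, Aurkc, Incenp, Pmf1, Mis12, Zwilch, Kntc1 and the marker genes were named after their values were seen. Among the 10 genes, at most 2.02% of 50-base stretches occur in transcripts of other genes, and 1.01% of Mad1l1 exon bases overlap a gene on the other strand.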

Additional observations from a re-analysis of the deposited data

Results flagged for a closer look

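In 62 groups of 4 values checked for a sample far from the other 3 (chance flags about 1 in 20 groups), 6 values stood apart. Among the checkpoint transcripts, Trip13 was at 4.80 FPKM in WT replicate 1, with the next highest WT library at 1.70. Bub3 was at 5.66 FPKM and Zwint at 3.55 FPKM in WT replicate 2, against next values of 4.36 and 2.74. Ttk was at 14.9999 FPKM in Esrp1-KO replicate 2, below the next lowest at 17.4. Bub1 relative to Bub3 was 2.11 (log2) in Esrp1-KO replicate 4, above the next highest of 1.90. Among the partner genes, Dsn1 was at 131 FPKM in Esrp1-KO replicate 3, below the next lowest at 162.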

How the results depend on the processing

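Over 19 alternatives the calls for Mad2l1bp held in each, those for Bub1b and Bub3 in 18 and that for Ttk in 14. Higher checkpoint genes numbered 2 with TMM, median-ratio and quantile scaling, 3 with the replicate block (Zw10 and Mad2l1 added) and 0 with replicates 1 and 4 alone. Lower ones numbered 1 with replicates 2 and 3 alone. Leaving out a library gave 1 to 2 higher and 2 to 3 lower. Over all genes, 2383 to 2866 were then called, 883 to 1093 higher and 1477 to 1838 lower. With a mean of at least 5 FPKM, where fewer genes were tested, the calls were 1664, 668 higher and 996 lower. With replicates 2 and 3 alone they were 1448, 569 higher and 879 lower, and with replicates 1 and 4 alone 675 were higher. The replicate block changed no other call among the 10 genes. Signs turned for members not past the threshold: Bub1 with TMM (0.10), median-ratio (0.0941) and quantile scaling (0.0691), with replicates 2 and 3 alone (0.11) and over left-out libraries (-0.11 to 0.14); Zwint with quantile scaling (0.0241), with replicates 2 and 3 alone (0.0171) and over left-out libraries (-0.16 to 0.0412); Trip13 with replicates 1 and 4 alone (-0.0600) and over left-out libraries (-0.0043 to 0.45). The cause was not tested. Differences for Mad2l1bp to Trip13, Mad2l1bp to Mad2l1, Bub1 to Bub3 and Bub1b to Bub3 were -2.49, -2.84, -0.71 and -1.15 with replicates 1 and 4 alone, and -2.26, -2.40, -0.81 and -1.44 with replicates 2 and 3 alone. A design of 2 against 2 cannot pass the threshold. With libraries left out they were -2.63 to -2.20, -2.81 to -2.48, -0.81 to -0.71 and -1.46 to -1.18. Zwint to Zw10 was then -0.49 to -0.26, and Mad1l1 to Mad2l1 -0.38 to 0.0476, its sign turning also with replicates 1 and 4 alone (0.14). Levels over transcript length, and the partner list counts, were alternatives chosen after seeing the data. At 83 to 500 reads per library, Mad2l1bp in Esrp1-KO, Trip13, Mad1l1 and Zwint had the fewest reads of the 10.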
